A study of Homo sapiens with 8 samples.

Results

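Messenger RNA levels of 34 glycolysis and hypoxia-inducible factor (HIF) target genes were followed through 4 groups of a human lung cancer cell line. The genes were chosen by name and role, with earlier results of these data known. They were 2 HIF alpha subunits (HIF1A and EPAS1), 17 glycolytic enzymes from hexokinase to lactate dehydrogenase, and 15 other HIF targets. All 34 were found among the 63677 gene IDs counted, and all 34 passed the filter on low counts in both comparisons. The first group was shHSF1, PC9-BrM3 cells carrying the doxycycline-inducible vector Tet-pLKO with a hairpin against the heat shock factor HSF1 (clone 7480, a single hairpin). Its control was shNTC, PC9-BrM3 cells with the same vector and a non-target hairpin. Both transduced groups were kept in puromycin for 5 days and given doxycycline at 500 ng/mL for 48 h. The untransduced groups were PC9-BrM3, a subline that colonises the brain, and PC9 parental, the lung adenocarcinoma line with an activating EGFR mutation from which it derives, both cultured for 48 h. Each group had 2 libraries. The labels do not say whether these were separate cultures, so p-values reflect only how far these samples spread, and that spread may be technical.

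Glycolysis splits glucose into pyruvate, and lactate dehydrogenase turns pyruvate into lactate, so that tumour cells can draw energy and carbon from glucose even where oxygen is plentiful. HIF is a transcription factor made of an oxygen-sensitive alpha subunit and the partner ARNT. EGLN prolyl hydroxylases mark the alpha subunit for destruction while oxygen is present. When oxygen falls, HIF binds hypoxia response elements and raises glucose transporters, most glycolytic enzymes and kinases that shut off pyruvate dehydrogenase. HIF also raises EGLN genes, which restrain it in turn. HSF1 is the main activator of heat shock protein genes and binds inverted repeats known as heat shock elements. The comparisons ask how this set of genes stood after HSF1 depletion and in the brain-tropic subline.

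Libraries held 33550140 to 56715336 gene-assigned counts, so that 3 counts, the limit of detection used here, correspond to 0.0529 to 0.0894 CPM (counts scaled to the library size). Mitochondrial genes took 1.40% to 6.23% of the counts in 7 libraries and 17.29% in PC9-BrM3 replicate 2, and that replicate pair differed the most (chi-square per degree of freedom 334.9, against 12.0 to 27.7 in the other groups). Transduced libraries were run on lane 1 and untransduced libraries on lane 7. Differences of level between those sets therefore cannot be told apart from lane, transduction or doxycycline, and only comparisons within a lane were tested. HSF1 itself was at 15.6 and 13.5 CPM in shHSF1, against 178.4 and 183.8 CPM in shNTC, lower by 12.25-fold in edgeR's quasi-likelihood test (log2 fold change -3.61 ± 0.08 SE, adjusted p = 2.66e-08). In PC9-BrM3 it was at 54.6 and 52.7 CPM, against 47.0 and 50.0 CPM in PC9 parental (adjusted p = 0.531, edgeR). Epithelial markers were abundant everywhere, with summed levels of 6794 to 7119 CPM in shHSF1, 5405 to 5689 CPM in shNTC, 3900 to 4229 CPM in PC9-BrM3 and 3268 to 3537 CPM in PC9 parental. Fibroblast markers summed to at most 0.0902 CPM in any library. The lung lineage list summed to 0.540 to 0.785 CPM in shHSF1, 0.785 to 1.96 CPM in shNTC, 2.29 to 2.92 CPM in PC9-BrM3 and 12.3 to 16.0 CPM in PC9 parental. SFTPB, which held most of that sum in PC9 parental, was called lower in both comparisons (edgeR adjusted p = 0.00911 and 0.0127). It held 1 and 4 counts in shHSF1, against 17 and 42 counts in shNTC, so the first call lies near the limit of detection. The defining factor NKX2-1 averaged 0.162 CPM in shHSF1, 0.0376 CPM in shNTC, 0.00939 CPM in PC9-BrM3 and 0.0538 CPM in PC9 parental, so that factor was nearly absent from a line labelled as lung adenocarcinoma. Of the markers of other cells, PTPRC of leukocytes averaged at most 0.0666 CPM in any group and GFAP of astrocytes at most 0.273 CPM, both in shHSF1, and MBP, a myelin gene, was the one brain marker with a level, averaging 99.1 CPM in shHSF1, 126.0 CPM in shNTC, 109.3 CPM in PC9-BrM3 and 158.5 CPM in PC9 parental. The immune list summed to 4.23 to 5.55 CPM in shHSF1, 2.27 to 2.59 CPM in shNTC, 2.14 to 2.22 CPM in PC9-BrM3 and 0.513 to 0.651 CPM in PC9 parental. Its integrin gene ITGAM was called higher in both comparisons (log2 fold changes 1.35 ± 0.21 and 2.94 ± 0.38 SE, edgeR adjusted p = 0.000577 and 0.0143). Of the endothelial list, CDH5 averaged 21.5 CPM in shHSF1, 41.0 CPM in shNTC, 28.9 CPM in PC9-BrM3 and 53.3 CPM in PC9 parental and was called lower in both comparisons (-0.91 ± 0.13 and -0.87 ± 0.18 SE, edgeR adjusted p = 0.000503 and 0.048), while KDR was at 0 in 7 libraries. The part of these markers in the results was not tested.

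The stretches upstream of 6 members are shown as examples from the called genes, because both HIF and HSF1 act through short sequence motifs. Each window runs from 250 bases before to 50 bases after the gene's start (RefSeq, GRCh38.p14), printed 5′ to 3′ on the gene's own strand. Capitals mark ACGTG and GCGTG, the cores of the hypoxia response element, and GAANNTTC and TTCNNGAA, inverted repeats found in heat shock elements, each searched on both strands. A core on the other strand appears as CACGT or CACGC, and the palindrome CACGTG counts as 2 matches, 1 on each strand. The first 3 windows belong to LDHA (chr11:18394313-18394612, plus strand), PGK1 (chrX:78103998-78104297, plus strand) and HIF1A (chr14:61695263-61695562, plus strand), which fell after HSF1 depletion. SLC2A1 (chr1:42958819-42959118, minus strand) and ADM (chr11:10304823-10305122, plus strand) rose, and BHLHE40 (chr3:4979187-4979486, plus strand) fell in the subline.
LDHA: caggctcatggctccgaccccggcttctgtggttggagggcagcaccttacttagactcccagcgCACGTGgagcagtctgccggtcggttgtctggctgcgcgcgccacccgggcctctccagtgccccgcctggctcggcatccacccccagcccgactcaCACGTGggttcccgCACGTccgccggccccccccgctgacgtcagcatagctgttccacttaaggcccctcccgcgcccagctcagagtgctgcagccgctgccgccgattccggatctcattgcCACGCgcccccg
PGK1: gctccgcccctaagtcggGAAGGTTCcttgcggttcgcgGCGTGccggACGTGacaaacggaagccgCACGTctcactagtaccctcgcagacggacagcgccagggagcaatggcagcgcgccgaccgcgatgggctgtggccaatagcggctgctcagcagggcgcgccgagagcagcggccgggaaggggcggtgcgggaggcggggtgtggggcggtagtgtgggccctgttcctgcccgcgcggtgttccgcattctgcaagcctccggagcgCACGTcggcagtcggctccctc
HIF1A: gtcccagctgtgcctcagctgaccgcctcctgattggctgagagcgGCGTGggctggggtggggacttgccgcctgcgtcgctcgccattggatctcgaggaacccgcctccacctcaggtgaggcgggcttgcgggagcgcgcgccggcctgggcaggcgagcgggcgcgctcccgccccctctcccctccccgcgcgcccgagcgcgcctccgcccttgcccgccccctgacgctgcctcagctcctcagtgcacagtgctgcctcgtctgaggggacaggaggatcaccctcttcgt
SLC2A1: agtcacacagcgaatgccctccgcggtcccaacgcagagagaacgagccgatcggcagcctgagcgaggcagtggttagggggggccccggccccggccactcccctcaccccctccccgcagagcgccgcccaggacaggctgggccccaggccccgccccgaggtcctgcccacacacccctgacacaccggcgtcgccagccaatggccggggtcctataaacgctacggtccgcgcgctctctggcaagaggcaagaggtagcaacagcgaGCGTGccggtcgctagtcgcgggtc
ADM: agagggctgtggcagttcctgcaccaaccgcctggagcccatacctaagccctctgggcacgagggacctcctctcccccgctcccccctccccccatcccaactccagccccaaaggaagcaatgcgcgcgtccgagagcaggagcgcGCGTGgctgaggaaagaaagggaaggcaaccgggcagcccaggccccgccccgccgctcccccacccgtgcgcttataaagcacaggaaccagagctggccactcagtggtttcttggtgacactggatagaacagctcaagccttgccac
BHLHE40: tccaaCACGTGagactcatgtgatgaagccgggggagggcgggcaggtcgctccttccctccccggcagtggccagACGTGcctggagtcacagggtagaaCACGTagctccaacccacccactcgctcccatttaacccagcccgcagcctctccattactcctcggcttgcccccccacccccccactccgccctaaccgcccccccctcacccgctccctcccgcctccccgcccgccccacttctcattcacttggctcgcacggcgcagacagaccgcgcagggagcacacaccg
The LDHA window held 5 matches to ACGTG and 1 to GCGTG, BHLHE40 held 4 to ACGTG, and PGK1 held 3 to ACGTG, 1 to GCGTG and 1 to GAANNTTC. SLC2A1, ADM and HIF1A held 1 match each, to GCGTG. These 6 are not typical of all called members in holding a core each. The windows of PGAM1, PFKM, EGLN3, PDK1, HK1, PFKP and MXI1, also called, held no match to any of the motifs.

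Windows were matched by symbol for 32 of the 34 members, all but SLC2A3 and NDRG1. At least 1 hypoxia core lay in 24 of the 32 (75.0%), against 62.1% of the 11457 windows of all tested genes. ACGTG was present in 40.6% of the members' windows, against 26.2% of all windows, and GCGTG in 53.1%, against 49.8%. By role, a core was found in 12 of 17 windows of glycolytic enzymes and in 10 of 13 windows of other HIF targets. A heat shock repeat was found in 1 of the 32 windows (3.1%), that of PGK1, against 10.3% of all windows. Members' windows had a median GC content of 69.7%, against 65.0% over all tested genes, and these motifs are GC-rich in part. Matches describe the letters in these windows only.

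Between genes, levels were compared as CPM per kilobase of exon. GAPDH, which oxidises glyceraldehyde 3-phosphate, was the highest member in every group, at 897.4 CPM per kilobase in shHSF1, 1105 in shNTC, 854.1 in PC9-BrM3 and 965.0 in PC9 parental (means of 2 libraries). ENO1, the main enolase, came next in every group, at 363.3 in shHSF1, 429.5 in shNTC, 394.9 in PC9-BrM3 and 356.1 CPM per kilobase in PC9 parental. LDHA, LDHB and the pyruvate kinase gene PKM were among the top 6 members in every group. LDHA held 210.2 CPM per kilobase in shHSF1, against 323.9 in shNTC, and 300.7 in PC9-BrM3, against 200.4 in PC9 parental. HIF1A was the highest member outside the enzymes in 3 groups, at 95.6 CPM per kilobase in shNTC, 124.3 in PC9-BrM3 and 86.5 in PC9 parental, whereas in shHSF1 it stood at 41.6 and the glucose transporter SLC2A1 led the non-enzymes at 122.7. ANKRD37, an ankyrin repeat protein induced by hypoxia, was the lowest member in every group. It held 0.591 CPM per kilobase in shHSF1, 0.395 in shNTC, 0.266 in PC9-BrM3 and 0.272 in PC9 parental. In bulk samples, fewer cells of a kind and less RNA per cell cannot be told apart.

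**Figure D1:**
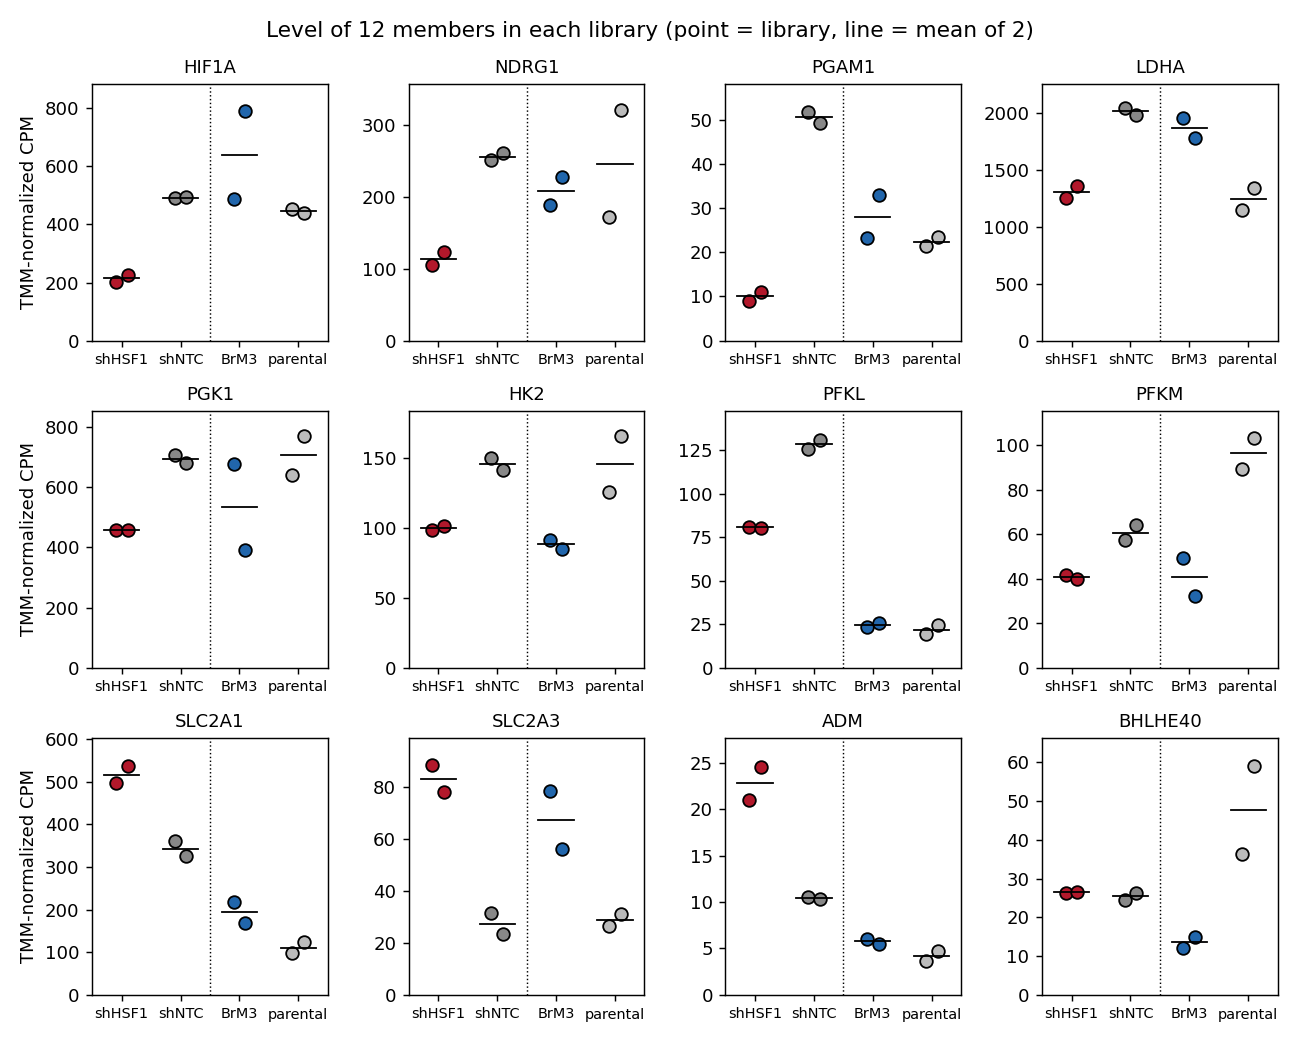
Normalised level of 12 members in each library (vertical axis, CPM on 1 TMM scale of the 8 libraries; points are libraries, lines are group means, and a dotted line parts the lanes). HIF1A, NDRG1, PGAM1, LDHA and PGK1 are lower in both shHSF1 libraries than in both shNTC libraries, SLC2A3 is higher in both shHSF1 and both PC9-BrM3 libraries than in their controls, and BHLHE40 is lowest in PC9-BrM3.

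After HSF1 depletion the set split in both directions. HIF1A, 9 glycolytic enzymes led by PGAM1, PFKL, LDHA and PGK1, and NDRG1 with 4 further targets fell. The glucose transporters SLC2A3 and SLC2A1, the peptide hormone gene ADM and the hydroxylase genes EGLN3 and EGLN1 rose. So did the minor isozymes ENO2 and ALDOC and, by small amounts, the more abundant HK1 and PFKP. In all, 24 of the 34 members (70.6%) passed an adjusted p of 0.05 in edgeR, against 45.7% of the 16840 genes tested. Of these 9 were higher, where 22.2% of all genes were, and 15 were lower, where 23.5% of all genes were. Libraries of shHSF1 and shNTC did not overlap for 30 of the 34 members, against 73.2% of all genes. Fold changes ran from -2.32 for PGAM1 to 1.62 for SLC2A3 on the log2 scale, and 5 of the called members changed at least 2-fold. The members' median log2 fold change was -0.13, against 0.01 over all genes. Calls of 11 members held under each of the 11 alternative settings tried: HIF1A, HK2, PFKL, PGAM1, LDHA, EGLN3, SLC2A1, SLC2A3, PDK1, ADM and NDRG1. The other 13 calls were lost when all 8 libraries shared 1 estimate of the spread, with the same direction.

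**Figure D2:**
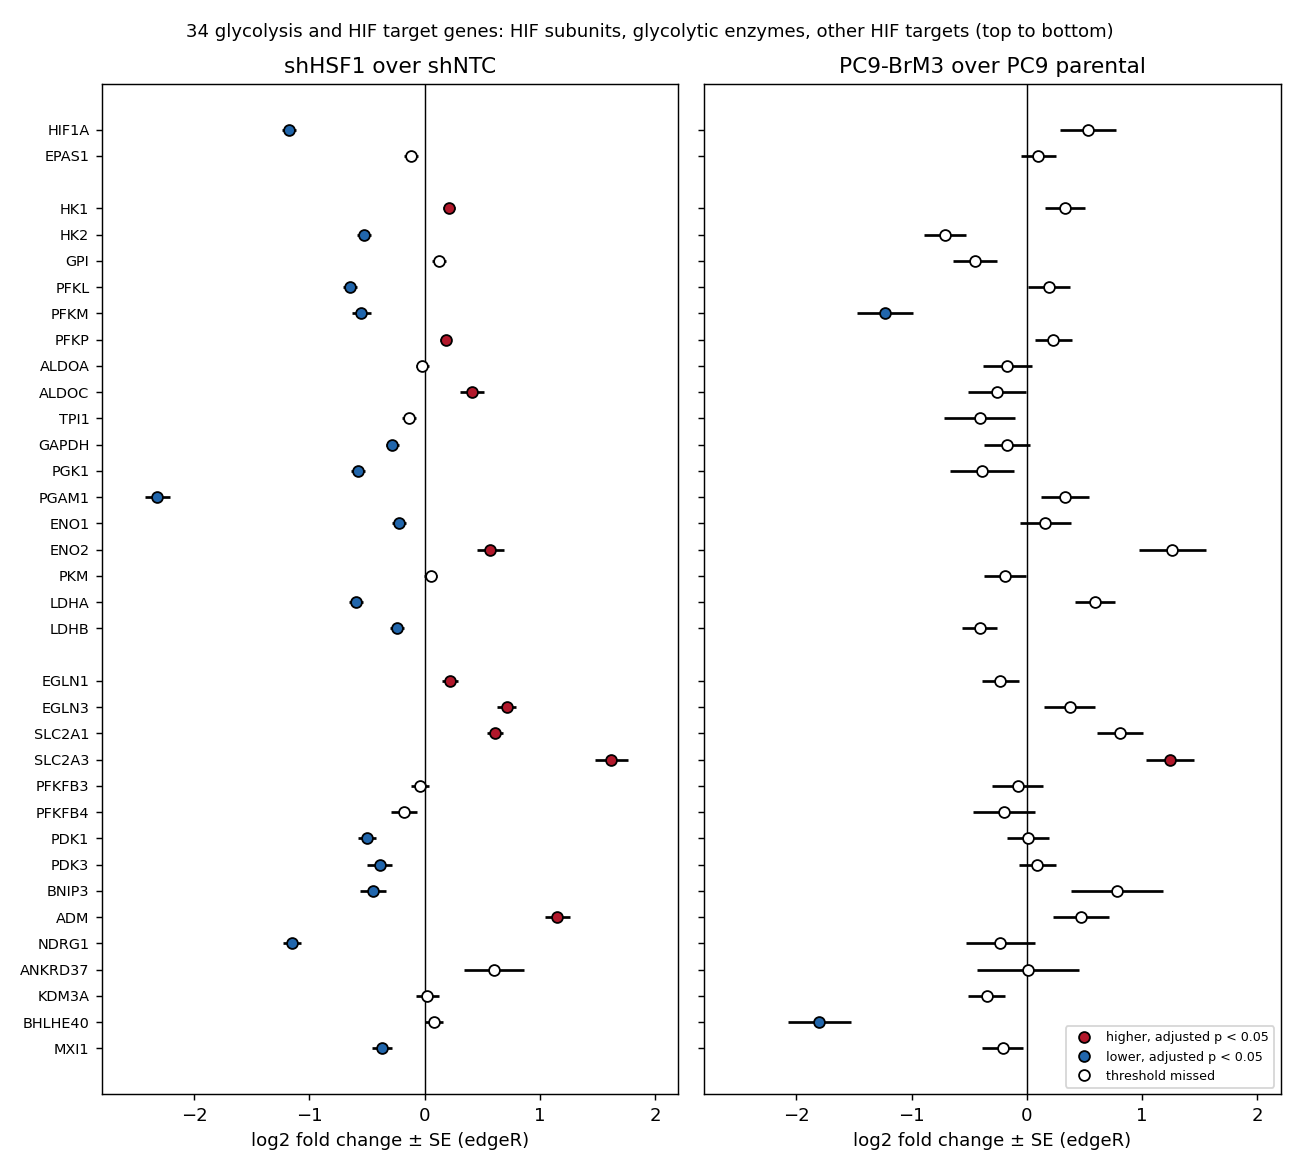
Log2 fold change of each member with its SE from edgeR (horizontal axis), shHSF1 over shNTC on the left and PC9-BrM3 over PC9 parental on the right; filled points passed an adjusted p of 0.05. The left panel holds 9 higher and 15 lower members with short error bars, and the right panel 1 higher and 2 lower members with longer ones.

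Among the HIF alpha subunits, HIF1A (chr14:62162231-62214976, GRCh37), the widely expressed subunit behind most glycolytic HIF targets, was at 202.7 and 225.3 CPM in shHSF1, against 490.5 and 493.9 CPM in shNTC. It fell 2.26-fold (log2 fold change -1.18 ± 0.06 SE, edgeR adjusted p = 7.88e-07), and no shHSF1 library came near a shNTC library. EPAS1, the HIF2 alpha subunit, was at 286.1 and 300.8 CPM in shHSF1 and at 326.0 and 323.3 CPM in shNTC (log2 fold change -0.12, edgeR adjusted p = 0.102). HIF1A took 50.8% of the summed CPM per kilobase of the pair in shHSF1, against 68.2% in shNTC. Transcript counts do not show the protein, whose stability is the main point of HIF control.

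At the top of glycolysis, isozymes of the same step moved apart after HSF1 depletion. HK2, the inducible hexokinase that many tumours use to trap glucose, was at 98.4 and 101.1 CPM in shHSF1, against 150.0 and 141.7 CPM in shNTC (log2 fold change -0.53 ± 0.06 SE, edgeR adjusted p = 9.91e-05). HK1, the housekeeping hexokinase, was at 343.6 and 354.2 CPM in shHSF1, against 305.9 and 305.7 CPM in shNTC (0.21 ± 0.05 SE, edgeR adjusted p = 0.0096). HK1 therefore rose slightly while HK2 fell, without overlap between the groups, but the HK1 call was lost without shNTC replicate 2. Phosphofructokinase, the committed step, showed the same kind of split. PFKL, its liver-type subunit, was at 80.8 and 80.4 CPM in shHSF1, against 125.8 and 131.0 CPM in shNTC (log2 fold change -0.65 ± 0.06 SE, edgeR adjusted p = 2.08e-05). PFKM, its muscle-type subunit, was at 41.8 and 39.7 CPM in shHSF1, against 57.3 and 64.0 CPM in shNTC (-0.55 ± 0.08 SE, edgeR adjusted p = 0.00031). PFKP, the platelet-type subunit, the most abundant of the 3 per kilobase, was at 261.4 and 261.6 CPM in shHSF1, against 233.9 and 235.3 CPM in shNTC (0.18 ± 0.05 SE, edgeR adjusted p = 0.0195). PFKL and PFKM fell and PFKP rose by a small amount; the PFKP call was lost without any one of the 4 libraries or with no filter (adjusted p up to 0.385 over the alternatives) and the PFKM call in the fit of all 8 libraries (adjusted p = 0.0635, edgeR). GPI, which converts glucose 6-phosphate to fructose 6-phosphate, was at 455.1 and 494.3 CPM in shHSF1 and at 437.7 and 448.9 CPM in shNTC (edgeR adjusted p = 0.127).

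In the middle of the pathway the main aldolase and the isomerase missed the threshold. ALDOA was at 1925 and 1985 CPM in shHSF1 and at 2005 and 2024 CPM in shNTC (edgeR adjusted p = 0.802), and TPI1 at 439.3 and 463.4 CPM in shHSF1 and at 507.2 and 505.6 CPM in shNTC (edgeR adjusted p = 0.0644). ALDOC, the brain-type aldolase, was at 50.0 and 42.2 CPM in shHSF1, against 37.0 and 33.6 CPM in shNTC (log2 fold change 0.41 ± 0.10 SE, edgeR adjusted p = 0.00671). Its rise was lost without shHSF1 replicate 1 or shNTC replicate 2. GAPDH was at 2621 and 2719 CPM in shHSF1, against 3286 and 3289 CPM in shNTC (-0.28 ± 0.06 SE, edgeR adjusted p = 0.00273), a small fall in a gene often used as a loading control. PGK1, which makes the first ATP of the pathway (chrX:77320685-77384793, GRCh37), was at 456.9 and 458.5 CPM in shHSF1, against 706.2 and 680.0 CPM in shNTC (-0.58 ± 0.06 SE, edgeR adjusted p = 2.97e-05). Its libraries were tight within each group and clearly apart between them, though the call was lost in the fit of all 8 libraries (adjusted p = 0.0975, edgeR).

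The steepest fall of any member was at the next step. PGAM1, the phosphoglycerate mutase (chr10:99185917-99193198, GRCh37), was at 8.99 and 11.0 CPM in shHSF1, against 51.8 and 49.4 CPM in shNTC. It was lower by 4.98-fold (log2 fold change -2.32 ± 0.11 SE, edgeR adjusted p = 3e-07), and it passed under all 11 alternatives. PGAM1 has 13 annotated pseudogene IDs and held 9833 counts over the 8 libraries. Per kilobase it ranked 28 of the 34 members in shHSF1, after its fall, and 17 in shNTC. Its rank was 18 in PC9-BrM3 and 20 in PC9 parental. Reads that fit several near-identical copies may be missing from its count, so its level is uncertain. The pseudogenes held 0.565 and 0.477 CPM in shHSF1, against 1.16 and 1.74 CPM in shNTC, and the retrocopy PGAM4 held 7 and 8 counts in shHSF1, against 42 and 36 counts in shNTC. Gene and copies thus lay lower together. The muscle isozyme PGAM2, rare in these cells, was at 1.41 and 1.77 CPM in shHSF1, against 0.413 and 0.327 CPM in shNTC (log2 fold change 2.10 ± 0.31 SE, edgeR adjusted p = 0.000395).

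Enolase moved like the mutase genes PGAM1 and PGAM2, with the main isozyme falling and the minor one rising. Hexokinase and phosphofructokinase went the other way. There the more abundant members, HK1 and PFKP, rose slightly, while HK2, PFKL and PFKM fell. ENO1 was at 1391 and 1485 CPM in shHSF1, against 1676 and 1724 CPM in shNTC (log2 fold change -0.22 ± 0.06 SE, edgeR adjusted p = 0.0135), a call lost without shHSF1 replicate 1 or shNTC replicate 2. ENO2, the neuronal enolase, was at 15.4 and 15.2 CPM in shHSF1, against 9.46 and 11.7 CPM in shNTC (0.57 ± 0.12 SE, edgeR adjusted p = 0.00376; 0.148 in the fit of all 8 libraries). PKM, the pyruvate kinase of most tissues, was at 1758 and 1881 CPM in shHSF1 and at 1742 and 1829 CPM in shNTC, with overlapping libraries (edgeR adjusted p = 0.53). At the last step, LDHA, which favours lactate production (chr11:18415935-18429972, GRCh37), was at 1252 and 1359 CPM in shHSF1, against 2042 and 1982 CPM in shNTC. It fell 1.52-fold (log2 fold change -0.60 ± 0.06 SE, edgeR adjusted p = 4.46e-05). LDHA counts may be shared with 6 pseudogene IDs, which held 9.61% of the counts of gene and copies together and were at 137.2 and 146.7 CPM in shHSF1, against 217.6 and 205.3 CPM in shNTC. LDHB, which favours the reverse reaction, was at 580.2 and 608.4 CPM in shHSF1, against 710.3 and 718.7 CPM in shNTC (-0.24 ± 0.06 SE, edgeR adjusted p = 0.00603), lost without shHSF1 replicate 1.

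The 5 other HIF targets that rose were both glucose transporter genes, ADM and both EGLN genes. SLC2A3, the high-affinity transporter GLUT3 (chr12:8071826-8088871, GRCh37), was at 88.3 and 77.9 CPM in shHSF1, against 31.4 and 23.4 CPM in shNTC, a 3.07-fold rise (log2 fold change 1.62 ± 0.14 SE, edgeR adjusted p = 5.39e-05). SLC2A1, the general transporter GLUT1 (chr1:43391052-43424530, GRCh37), was at 497.2 and 535.7 CPM in shHSF1, against 361.4 and 324.5 CPM in shNTC (0.61 ± 0.07 SE, edgeR adjusted p = 8.2e-05). Both shHSF1 libraries lay above both shNTC libraries for each transporter. SLC2A14, a near copy of SLC2A3, held 5 and 12 counts in shHSF1 and 2 and 1 counts in shNTC, and reads that fit both could not be placed. ADM, the gene of the vasodilator adrenomedullin, was at 21.0 and 24.6 CPM in shHSF1, against 10.6 and 10.3 CPM in shNTC (log2 fold change 1.15 ± 0.11 SE, edgeR adjusted p = 2.67e-05). EGLN3, the hypoxia-inducible prolyl hydroxylase, was at 43.2 and 44.4 CPM in shHSF1, against 28.5 and 25.9 CPM in shNTC (0.71 ± 0.08 SE, edgeR adjusted p = 8.87e-05). EGLN1, the main oxygen sensor of the family, was at 62.7 and 63.4 CPM in shHSF1, against 52.4 and 57.5 CPM in shNTC (0.22 ± 0.07 SE, edgeR adjusted p = 0.026). The EGLN1 call was lost without shNTC replicate 1 or without either shHSF1 library. These 5 genes were thus called in the direction opposite to HIF1A.

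The 5 other HIF targets that fell with HIF1A were NDRG1, PDK1, PDK3, BNIP3 and MXI1. NDRG1, a stress-responsive gene strongly induced by hypoxia, was at 104.7 and 123.1 CPM in shHSF1, against 251.8 and 261.2 CPM in shNTC (lower by 2.22-fold, -1.15 ± 0.08 SE on the log2 scale, edgeR adjusted p = 2.75e-06). PDK1, a kinase that shuts off pyruvate dehydrogenase, was at 47.0 and 43.3 CPM in shHSF1, against 68.2 and 61.8 CPM in shNTC (-0.50 ± 0.08 SE, edgeR adjusted p = 0.000645). PDK3, its hypoxia-inducible relative, was at 9.87 and 11.2 CPM in shHSF1, against 14.3 and 13.7 CPM in shNTC (-0.39 ± 0.11 SE, edgeR adjusted p = 0.017). Both kinases therefore fell by similar amounts. BNIP3, a receptor for removal of mitochondria, was at 21.1 and 24.9 CPM in shHSF1, against 34.3 and 29.6 CPM in shNTC (-0.45 ± 0.11 SE, edgeR adjusted p = 0.00741). MXI1, an antagonist of MYC, was at 16.3 and 17.1 CPM in shHSF1, against 21.8 and 21.9 CPM in shNTC (-0.37 ± 0.09 SE, edgeR adjusted p = 0.00876). The calls of PDK3, BNIP3 and MXI1 were lost without shHSF1 replicate 1, and those of PDK3 and BNIP3 also without shNTC replicate 1. Another 5 targets missed the threshold. KDM3A, a histone demethylase, was at 39.5 and 44.3 CPM in shHSF1 and at 37.8 and 46.1 CPM in shNTC (edgeR adjusted p = 0.875), and BHLHE40, a transcriptional repressor, at 26.2 and 26.6 CPM in shHSF1 and at 24.5 and 26.3 CPM in shNTC (0.47). PFKFB3, which makes the activator of phosphofructokinase, was at 42.2 and 46.2 CPM in shHSF1 and at 45.2 and 47.0 CPM in shNTC (0.714), and its relative PFKFB4 at 12.1 and 12.8 CPM in shHSF1 and at 13.4 and 15.3 CPM in shNTC (0.22). ANKRD37 was at 1.28 and 1.77 CPM in shHSF1 and at 1.03 and 1.01 CPM in shNTC (0.0933).

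In the subline comparison SLC2A3 was the 1 member that rose, and PFKM and BHLHE40 fell. SLC2A3 was at 78.5 and 56.2 CPM in PC9-BrM3, against 26.4 and 31.0 CPM in PC9 parental (log2 fold change 1.24 ± 0.21 SE, edgeR adjusted p = 0.0295). PFKM (chr12:48498922-48540187, GRCh37) was at 49.1 and 32.3 CPM in PC9-BrM3, against 89.4 and 103.4 CPM in PC9 parental (-1.23 ± 0.24 SE, edgeR adjusted p = 0.0387). BHLHE40 (chr3:5020801-5027008, GRCh37) was at 12.2 and 14.9 CPM in PC9-BrM3, against 36.4 and 59.0 CPM in PC9 parental, lower by 3.49-fold (-1.80 ± 0.27 SE, edgeR adjusted p = 0.0208). None of these 3 pairs of groups overlapped. These 3 of 34 members make 8.82%, against 7.14% of the 17372 genes tested, so the share is near the background. By direction 1 member was higher, where 3.87% of all genes were, and 2 were lower, where 3.27% were. Groups did not overlap for 16 of 34 members, against 59% of all genes. The members' median log2 fold change was -0.04, against 0.01 over all genes.

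Each of these calls was lost on leaving out some libraries, while the direction stayed. Over the 11 alternatives the log2 fold change of SLC2A3 ran from 0.98 to 1.45 and that of PFKM from -1.57 to -0.98. That of BHLHE40 ran from -2.13 to -1.43. The calls of SLC2A3 and PFKM were lost without either PC9 parental library (adjusted p up to 0.193 and 0.116), and that of BHLHE40 without either PC9-BrM3 library (adjusted p up to 0.188, edgeR). Leaving out PC9-BrM3 replicate 1 gave 8 higher and 12 lower members, leaving out PC9-BrM3 replicate 2 gave 5 higher and 6 lower, and leaving out either PC9 parental library gave 0 higher and 1 lower. With a lone PC9-BrM3 library assumed to vary like the PC9 parental pair, 8 members passed in the same direction whichever one was left out (23.5%, against 22% of all genes): ENO2, LDHA, SLC2A1 and SLC2A3 higher, and HK2, GPI, PFKM and LDHB lower. Replicate 2 also had the high share of mitochondrial counts, and the part of that share in these values was not tested; with mitochondrial genes left out, the counts of called members did not move by more than 1.5 times.

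Several members with sizeable differences in the subline missed the threshold in the fit of 4 libraries. ENO2 was at 17.1 and 10.4 CPM in PC9-BrM3, against 5.31 and 6.24 CPM in PC9 parental (log2 fold change 1.26 ± 0.29 SE, edgeR adjusted p = 0.0626). SLC2A1 was at 217.6 and 169.1 CPM in PC9-BrM3, against 98.2 and 123.3 CPM in PC9 parental (0.81 ± 0.20 SE, edgeR adjusted p = 0.0719). HK2 was at 91.7 and 84.9 CPM in PC9-BrM3, against 125.7 and 166.2 CPM in PC9 parental (-0.71 ± 0.18 SE, edgeR adjusted p = 0.0792). For all 3 the groups did not overlap. LDHA was at 1955 and 1779 CPM in PC9-BrM3, against 1146 and 1342 CPM in PC9 parental (0.59 ± 0.17 SE, edgeR adjusted p = 0.1), and LDHB at 675.3 and 614.4 CPM in PC9-BrM3, against 884.4 and 839.5 CPM in PC9 parental (-0.41 ± 0.15 SE, edgeR adjusted p = 0.166). The lactate dehydrogenase genes thus lay on opposite sides, without a call. HIF1A was at 489.5 and 790.6 CPM in PC9-BrM3, against 452.2 and 438.8 CPM in PC9 parental, with the difference carried by replicate 2 (0.53 ± 0.24 SE, edgeR adjusted p = 0.245). EPAS1 was at 269.2 and 292.4 CPM in PC9-BrM3 and at 248.6 and 277.2 CPM in PC9 parental, with overlapping groups (edgeR adjusted p = 0.687).

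PC9-BrM3 replicates were far apart for several enzymes of the middle steps. PGK1 was at 677.9 and 391.0 CPM in PC9-BrM3, against 641.0 and 772.5 CPM in PC9 parental (edgeR adjusted p = 0.426), and TPI1 at 363.5 and 196.1 CPM in PC9-BrM3, against 335.3 and 415.9 CPM in PC9 parental (0.44). GPI was at 289.8 and 223.5 CPM in PC9-BrM3, against 321.5 and 385.7 CPM in PC9 parental (0.211). In each, replicate 2 held the lower value. GAPDH was at 2854 and 2228 CPM in PC9-BrM3 and at 2678 and 3063 CPM in PC9 parental (0.636). ALDOA was at 840.6 and 634.3 CPM in PC9-BrM3 and at 737.6 and 928.6 CPM in PC9 parental (0.652), and ENO1 at 1829 and 1297 CPM in PC9-BrM3 and at 1326 and 1492 CPM in PC9 parental (0.678). The groups overlapped for these 3. PKM was at 1340 and 1673 CPM in PC9-BrM3 and at 1653 and 1796 CPM in PC9 parental (0.552), and HK1 at 259.0 and 329.7 CPM in PC9-BrM3 and at 228.5 and 243.7 CPM in PC9 parental (0.289). PGAM1 was at 23.2 and 32.9 CPM in PC9-BrM3 and at 21.4 and 23.5 CPM in PC9 parental (0.385). For PKM, HK1 and PGAM1 it was replicate 2 that held the higher PC9-BrM3 value. PFKL was at 23.6 and 25.5 CPM in PC9-BrM3 and at 19.1 and 24.3 CPM in PC9 parental (0.564), PFKP at 69.7 and 82.4 CPM in PC9-BrM3 and at 61.4 and 68.8 CPM in PC9 parental (0.41), and ALDOC at 39.2 and 31.6 CPM in PC9-BrM3 and at 33.5 and 51.8 CPM in PC9 parental (0.545).

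Of the other HIF targets, EGLN3 was at 34.1 and 27.2 CPM in PC9-BrM3 and at 19.9 and 27.8 CPM in PC9 parental (edgeR adjusted p = 0.349), and EGLN1 at 52.7 and 44.2 CPM in PC9-BrM3 and at 53.9 and 60.1 CPM in PC9 parental (0.431). ADM was at 6.05 and 5.47 CPM in PC9-BrM3, against 3.67 and 4.69 CPM in PC9 parental, without overlap (0.273). BNIP3 was at 16.2 and 29.8 CPM in PC9-BrM3 and at 9.42 and 17.5 CPM in PC9 parental, with each group spread widely (0.283). NDRG1 was at 189.0 and 227.6 CPM in PC9-BrM3 and at 172.6 and 321.0 CPM in PC9 parental, where the parental pair enclosed the subline (0.658). PDK1 was at 47.5 and 38.0 CPM in PC9-BrM3 and at 45.1 and 40.6 CPM in PC9 parental (0.989), and PDK3 at 19.4 and 18.4 CPM in PC9-BrM3 and at 17.8 and 18.0 CPM in PC9 parental (0.765). The kinases that fell after HSF1 depletion were thus close to level here. KDM3A was at 59.8 and 49.6 CPM in PC9-BrM3, against 69.4 and 71.4 CPM in PC9 parental (0.237), and MXI1 at 27.4 and 34.2 CPM in PC9-BrM3 and at 33.1 and 38.5 CPM in PC9 parental (0.499). PFKFB3 was at 41.7 and 29.7 CPM in PC9-BrM3 and at 33.9 and 42.1 CPM in PC9 parental (0.843), PFKFB4 at 12.1 and 7.67 CPM in PC9-BrM3 and at 11.0 and 12.0 CPM in PC9 parental (0.673), and ANKRD37 at 0.920 and 0.451 CPM in PC9-BrM3 and at 0.602 and 0.804 CPM in PC9 parental (0.99). A missed threshold with this spread does not show that the levels were alike.

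The comparisons share no library, so the change in one could be set against the change in the other in a single fit of all 8 libraries. In the separate fits of 4 libraries, SLC2A3 was called higher in both comparisons and PFKM lower in both. Their subline calls were lost on leaving out either PC9 parental library. PFKM also lost its call after HSF1 depletion in the fit of all 8 libraries. The share of all genes called alike in both comparisons is not given here. In the single fit the changes themselves differed for 5 members (14.7%, against 23.5% of the 18122 genes tested, in edgeR). For PGAM1 the log2 change under HSF1 depletion minus that in the subline was -2.65 ± 0.26 SE (edgeR adjusted p = 0.000403). The same difference was -1.72 ± 0.28 for HIF1A (adjusted p = 0.00352), -1.21 ± 0.17 for LDHA (0.00181) and -0.85 ± 0.18 for PFKL (0.0127, edgeR). These 4 are the lower calls, where 13.8% of all genes were lower. BHLHE40 was the 1 higher call, where 9.77% of all genes were higher, with a difference of 1.87 ± 0.31 SE (edgeR adjusted p = 0.00368). PFKL lost its call without PC9 parental replicate 1 or without any one transduced library, and the other 4 kept theirs under the alternatives tried. LDHA thus stood lower in shHSF1 than in shNTC, and higher, without a call of its own, in PC9-BrM3 than in PC9 parental.

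Shares of paralogs within a library do not depend on its scaling. Of the pair HK1 and HK2, HK2 took 22.5% and 22.5% of the summed CPM per kilobase in shHSF1, against 33.3% and 32.0% in shNTC, and 26.5% and 20.8% in PC9-BrM3, against 35.9% and 40.9% in PC9 parental. HK1 was the larger of the pair in every library. A further hexokinase gene outside the set, HKDC1, is not in these shares; its mean level was above that of HK1 in every group, at 95.3 CPM per kilobase in shHSF1, 71.6 in shNTC, 51.5 in PC9-BrM3 and 81.5 in PC9 parental. In phosphofructokinase, PFKP held 78.7% in shHSF1 and 68.2% in shNTC (means of 2 libraries), and 65.3% in PC9-BrM3 and 46.3% in PC9 parental. PFKM was nearly level with PFKP in PC9 parental, at 45.2% and 45.5%, but held 28.3% and 18.2% in PC9-BrM3, and 8.32% and 7.95% in shHSF1, against 11.2% and 12.2% in shNTC. PFKM thus took a smaller share in shHSF1 than in shNTC and in PC9-BrM3 than in PC9 parental, in every library. Without the length correction it held 52.6% in PC9 parental, above PFKP at 35.6%. LDHA took 50.9% and 51.8% of the pair LDHA and LDHB in shHSF1, against 58.0% and 57.0% in shNTC, and 58.2% and 58.2% in PC9-BrM3, against 38.4% and 43.4% in PC9 parental. In PC9 parental, then, LDHB was the larger of the pair per length, and in the other 3 groups LDHA was; without the length correction LDHA was the larger in PC9 parental too (59.0%). SLC2A3 held 9.93% of the transporter pair in shHSF1, against 5.15% in shNTC, and 19.1% in PC9-BrM3, against 15.1% in PC9 parental. ENO2 stayed below 1% of its pair with ENO1 on average, at 0.977% in shHSF1, 0.570% in shNTC, 0.797% in PC9-BrM3 and 0.377% in PC9 parental. ALDOC held 4.73% of the aldolase pair in shHSF1, 3.55% in shNTC, 9.19% in PC9-BrM3 and 9.61% in PC9 parental. EGLN3 held 40.7% of its pair in shHSF1, 32.8% in shNTC, 38.4% in PC9-BrM3 and 29.0% in PC9 parental. Between the kinase pairs there was little shift: PDK1 held 43.4% of its pair in shHSF1 and 45.3% in shNTC, with 28.6% in the subline and 29.9% in the parental line. Without the length correction PDK1 was the larger, at 81.1% in shHSF1, 82.3% in shNTC, 69.2% in PC9-BrM3 and 70.5% in PC9 parental. PFKFB4 held 20.2% in shHSF1 and 21.8% in shNTC, with 19.8% in the subline and 21.4% in the parental line.

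**Figure D3:**
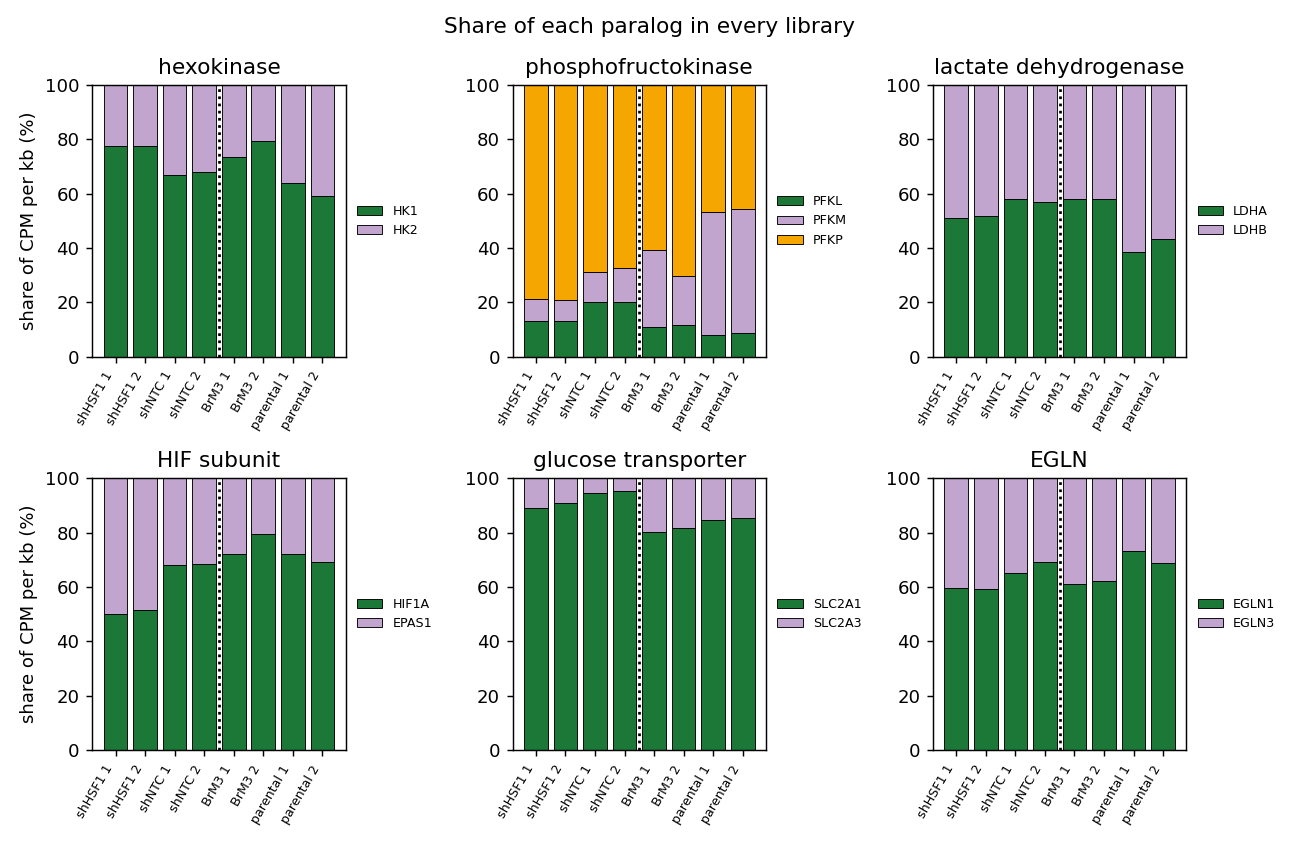
Share of each paralog in the summed CPM per kilobase of the genes shown in its panel (vertical axis, percent; genes outside the set, such as HKDC1, are not included) in every library (bars), with a dotted line between the lanes. The HK2 and PFKM segments are smaller in shHSF1 than in shNTC and in PC9-BrM3 than in PC9 parental, while LDHA is the smaller lactate dehydrogenase in the PC9 parental libraries alone.

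Glycolytic enzymes and other HIF targets are set side by side here as counts, without a test of their difference. After HSF1 depletion 4 of the 17 enzymes were higher and 9 lower, with a median log2 fold change of -0.22. Of the 15 other targets 5 were higher and 5 lower, with a median of 0.02, beside 0.01 over all genes, of which 22.2% were higher and 23.5% lower. The calls of HK1, PFKP, ALDOC, ENO1 and LDHB among the enzymes and of EGLN1, PDK3, BNIP3 and MXI1 among the other targets were lost on leaving out 1 library or another. Summed CPM per kilobase of the enzymes came to 2604 and 2725 in shHSF1, against 3163 and 3178 in shNTC. The same sum over the other targets came to 205.5 and 220.2 in shHSF1, against 182.3 and 172.3 in shNTC. Enzymes as a sum were thus lower and the other targets as a sum higher in both shHSF1 libraries, with GAPDH weighing most in the first sum and SLC2A1 in the second. SLC2A1 alone averaged 122.7 CPM per kilobase in shHSF1, against 81.5 in shNTC. Its rise exceeded that of the whole sum, so the higher sum does not describe the other targets apart from SLC2A1. In the subline 1 of 17 enzymes was called, with a median of -0.17, and 2 of 15 other targets, with a median of 0.01, where 7.14% of all genes were called. Enzymes summed to 2648 and 2151 CPM per kilobase in PC9-BrM3 and to 2407 and 2722 in PC9 parental. The other targets summed to 139.2 and 129.6 in PC9-BrM3 and to 100.7 and 137.4 in PC9 parental, and both sums overlapped between the groups. No test was made of the lists, since their members were chosen with results known.

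**Figure D4:**
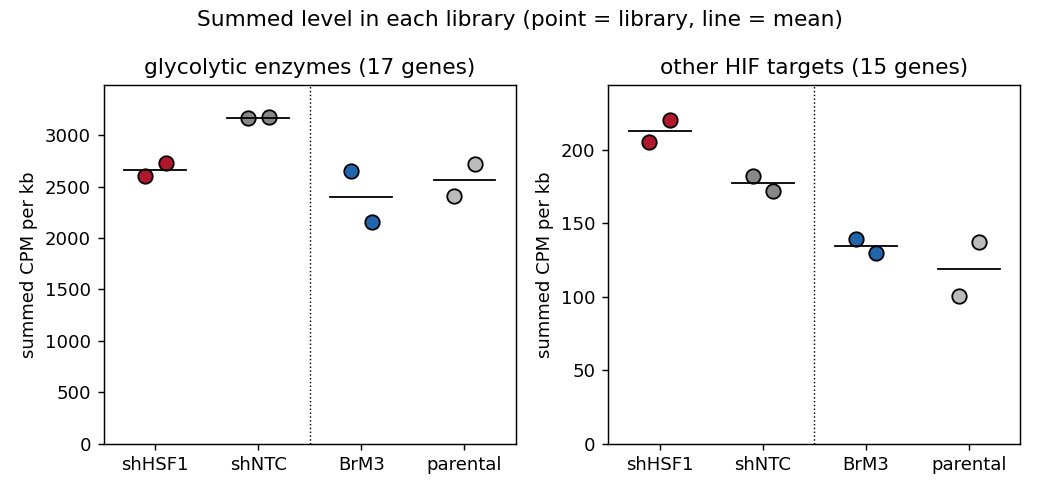
Summed CPM per kilobase of exon (vertical axis) of the 17 glycolytic enzymes and the 15 other HIF targets in each library (points), with group means (lines) and a dotted line between the lanes. The shHSF1 points lie below the shNTC points for the enzymes and above them for the other targets, whereas PC9-BrM3 and PC9 parental points overlap in both panels. For the other targets, the rise of SLC2A1 alone exceeds that of the sum.

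Of 15 HIF regulators outside the set, 5 were higher and 2 lower after HSF1 depletion (46.7%), a share near the 45.7% of all genes. HIF1AN, the asparaginyl hydroxylase that blocks HIF from its coactivators, was at 22.8 and 21.9 CPM in shHSF1, against 93.4 and 89.9 CPM in shNTC (log2 fold change -2.01 ± 0.07 SE, edgeR adjusted p = 6.7e-08). CITED2, which competes with HIF for those coactivators, was at 178.0 and 179.2 CPM in shHSF1, against 77.2 and 70.8 CPM in shNTC (1.29 ± 0.07 SE, edgeR adjusted p = 5.51e-07). These inhibitors of HIF thus changed in opposite directions, and the coactivator genes CREBBP and EP300 rose by 0.34 and 0.20 on the log2 scale. VHL, the receptor for hydroxylated HIF, fell by 0.39. Of 34 tested HIF targets outside the set (SLC16A3 among them also stands in the pyruvate and lactate list), 12 were higher and 9 lower (61.8%). AK4, a mitochondrial adenylate kinase, was at 24.9 and 24.2 CPM in shHSF1, against 100.2 and 97.4 CPM in shNTC (-1.99 ± 0.07 SE, edgeR adjusted p = 6.47e-08). CA9, the carbonic anhydrase used as a hypoxia marker, was at 0.694 and 0.981 CPM in shHSF1, against 3.59 and 3.81 CPM in shNTC (-2.12 ± 0.23 SE, edgeR adjusted p = 5.59e-05). HILPDA, a lipid droplet protein, fell by 1.16 and the collagen hydroxylase PLOD1 fell by 0.55. LOX, which cross-links collagen, rose by 1.04, and WSB1 and TFRC rose by 0.63 and 0.37.

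In the subline 1 of the 15 regulators was called, SIAH2, which fell by 1.01, and of 35 HIF targets outside the set 1 was higher and 5 lower (6.67% and 17.1%, against 7.14% of all genes). IGFBP3, a binding protein of insulin-like growth factors, was at 259.5 and 323.1 CPM in PC9-BrM3, against 67.2 and 100.1 CPM in PC9 parental (log2 fold change 1.81 ± 0.24 SE, edgeR adjusted p = 0.0153). CA12, a membrane carbonic anhydrase, had 0 counts in both PC9-BrM3 libraries, against 327 and 324 counts in the PC9 parental libraries. DDIT4, an inhibitor of mTORC1, was at 52.3 and 36.3 CPM in PC9-BrM3, against 208.2 and 271.2 CPM in PC9 parental (-2.42 ± 0.25 SE, edgeR adjusted p = 0.00781). LOX fell by 2.05 and STC2 fell by 1.03 on the log2 scale. LOX was thus lower in the subline and higher after HSF1 depletion, and its changes differed in the test of the difference (edgeR adjusted p = 7.42e-05).

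Genes beside and below glycolysis are given as counts, to be read against the 45.7% of all genes called after HSF1 depletion (22.2% higher, 23.5% lower) and the 7.14% called in the subline. Of 16 tested isozymes outside the set, 6 were higher and 4 lower after HSF1 depletion (62.5%): HKDC1, PFKFB2, SLC2A6 and PGAM2 rose by 0.44, 0.48, 0.51 and 2.10, and PDK2, PDK4, LDHD and PGAM4 fell by 0.51, 0.75, 1.14 and 2.15. In the subline 0 were higher and 2 were lower: SLC2A13 fell by 1.69 and HKDC1 fell by 0.65. Among genes of pyruvate and lactate fate, 8 of 20 were higher and 3 lower in shHSF1 than in shNTC (55%). SLC16A1, the lactate transporter MCT1, was at 328.4 and 330.9 CPM in shHSF1, against 198.0 and 196.5 CPM in shNTC (log2 fold change 0.76 ± 0.05 SE, edgeR adjusted p = 3.7e-06). In the subline it went the other way, at 135.1 and 128.2 CPM in PC9-BrM3, against 257.2 and 244.3 CPM in PC9 parental (-0.92 ± 0.14 SE, edgeR adjusted p = 0.0213), and its changes differed (edgeR adjusted p = 0.00016). Pyruvate dehydrogenase subunits DLAT and PDHX rose by 0.37 and 0.40 and GPD2 by 0.28 after HSF1 depletion, while the phosphatase PDP1, pyruvate carboxylase PC and the transporter chaperone BSG fell by 0.58, 0.45 and 0.19. SLC16A7, the transporter MCT2, was the other lower gene of this list in the subline, with 1 and 1 counts in PC9-BrM3, against 157 and 198 counts in PC9 parental; none of the 21 tested was higher. In the side branches 4 of 15 were higher and 4 lower after HSF1 depletion (53.3%), near the share of all genes. GFPT2, TIGAR, TALDO1 and PGM1 rose by 0.69, 0.46, 0.24 and 0.19, and PSPH, RPE and PHGDH were among those that fell, by 0.53, 0.38 and 0.29. The subline had 0 higher and 2 lower there: PSAT1 of serine synthesis fell by 1.62 and RPIA of the pentose phosphate pathway fell by 1.21.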

How the data were processed

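Groups came from the sample titles, with 2 RNA-seq libraries in each of 4. The deposited unit is the raw count: the authors ran featureCounts (version 1.6.1, per the file headers) on exons of a GRCh37 Ensembl annotation, reverse-stranded and summed by gene ID, with no option set for reads with several alignments. The deposited exon length of each gene (another column, in bases) gave levels per kilobase. Trim Galore, HISAT2 and DESeq2 are also named per the submitters' processing notes.

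Symbols were matched for 52181 of 63677 gene IDs. The 4 libraries of a comparison were fitted on their own with edgeR 4.0.16 in R 4.3.3, after filterByExpr (minimum count 10, total 15) and TMM scaling, using the robust quasi-likelihood test with Benjamini-Hochberg adjustment over all genes tested and a threshold of 0.05. The difference between comparisons came from 1 fit of all 8 libraries. CPM are on 1 TMM scale of the 8 libraries, which moved log2 differences by -0.023 (shHSF1 against shNTC) and -0.008 (PC9-BrM3 against PC9 parental) from the scales of the tests. The fit was tested on simulated data. Alternatives were RLE and upper-quartile factors, no filter, DESeq2 1.42.0, a replicate block, leaving out each library, and all 8 libraries in 1 fit; a setting without mitochondrial genes was added after the data were seen. The members and lists were chosen with earlier results of these data known. Named genes were all 34 members, HSF1, and from each other list up to 4 called genes in each direction by smallest p; values of some genes that it would name are not reported here. PGAM4 and PGAM2 fall under that rule; SLC2A14 and the cell type markers were named for what they say of the members and samples. Limits of 3 counts cover counting error only.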

Additional observations from a re-analysis of the deposited data

How the results depend on the processing

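Over the alternatives, 11 of 24 member calls held throughout in the HSF1 comparison, 0 of 3 in the subline comparison and 4 of 5 for the difference, and 0 called members changed direction. Fitting all 8 libraries together gave 1639 higher and 2234 lower genes for shHSF1 against shNTC, with 4 higher and 7 lower members (4 enzymes and 6 other targets called). That fit gave 1991 higher and 1822 lower genes for PC9-BrM3 against PC9 parental, with 4 higher and 4 lower members (5 enzymes). In the subline comparison no filter gave 1660 higher and 1499 lower genes and DESeq2 gave 1206 and 997, each with 4 higher members and 4 enzymes called. The replicate block gave 2 higher members and 2 enzymes called there; same-numbered libraries share only a number (correlation of deviations 0.01 and -0.00). For the difference, no filter gave 4 higher members. The causes were not tested.

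Leaving out 1 library gave 6 to 10 other targets called for shHSF1 against shNTC. For PC9-BrM3 against PC9 parental it gave 182 to 4702 genes higher, 220 to 4526 lower, 0 to 8 members higher, 1 to 12 lower, 0 to 13 enzymes and 1 to 6 other targets called. For the difference the ranges were 837 to 4437 genes higher, 1279 to 4765 lower, 1 to 10 members higher and 3 to 9 lower. A lone library was assumed to vary like the other groups.

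Some members without a call changed sign. After HSF1 depletion these were ALDOA (0.05) and PFKFB3 (0.03) with upper-quartile factors and KDM3A (-0.00) with all 8 libraries; with 1 library left out they ran from -0.04 to 0.00, -0.10 to 0.03 and -0.11 to 0.16. In the subline PDK1 was at -0.00, -0.01 or -0.02 under 7 settings, and ANKRD37 at -0.01 with no filter or without mitochondrial genes, -0.02 with DESeq2 and -0.05 with the block. Leaving out 1 library there gave ALDOA -0.39 to 0.01, ALDOC -0.56 to 0.07, ENO1 -0.11 to 0.37, PFKFB3 -0.35 to 0.13, PFKFB4 -0.57 to 0.08, PDK1 -0.17 to 0.14, NDRG1 -0.63 to 0.27 and ANKRD37 -0.63 to 0.39.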
